A study of Mus musculus with 44 samples.

Results

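The transcripts of 10 innate sensor and adaptor genes were examined after viral overexpression of the nuclear receptor RXRa in mouse nucleus accumbens. This striatal region lies at the base of the forebrain. Most of the genes sense nucleic acids or relay that signal, while Tlr2 is best known for other ligands. The genes were Tlr2, Tlr3, Tlr7, Tlr9, Myd88, Ticam1, Ddx58, Ifih1, Dhx58 and Zbp1. They were taken by symbol as 10 of the 55487 genes in the count tables, and all 10 were found in both tables and passed the filter on low counts in both. The study asked how RXRa changes the transcriptome of this region in whole tissue and in nuclei of the 2 main neuron classes.

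All groups came from animals that received a virus in the nucleus accumbens, so the controls carry a virus and a fluorescent protein too. The bulk tissue came from males and was poly(A)-selected, with 4 libraries of the herpes simplex virus vector HSV-GFP and 4 of HSV-RXRa-GFP. The sorted nuclei gave total RNA from animals with the adeno-associated virus vectors AAV9-CAG-DIO-EGFP or AAV9-CAG-DIO-EGFP-P2A-RXRa, in which the ubiquitous CAG promoter drives an insert that is turned on by Cre recombinase. There were 5 EGFP and 4 RXRa libraries of D1 female nuclei, 5 and 4 of D1 male, 4 and 4 of D2 female, and 5 and 4 of D2 male. D1 and D2 stand for the projection neurons with dopamine receptor D1 (Drd1) or D2 (Drd2). Strain, age, Cre line and time after infusion are not given in the sources used here. A further sorted library has a title that names RXRa and a vector label that names EGFP. It was left out of all comparisons. Nothing states that replicates came from separate animals, so p-values measure the spread between these libraries, which may be technical. The bulk and sorted tables differ in virus, RNA selection and material, and levels were compared only within a table.

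Cells detect foreign or misplaced nucleic acids through receptors that signal to interferon and NF-kappaB target genes. Toll-like receptors survey the cell surface and endosomes and signal through the adaptor proteins MyD88 and TRIF. RIG-I-like receptors bind RNA in the cytosol and signal through MAVS. In brain, microglia and other immune cells carry most Toll-like receptors, while RIG-I-like receptors and ZBP1 are induced by interferon in many cell types.

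Promoter windows from RefSeq on GRCm38.p6, 250 bases before to 50 after a gene start, were matched for 7 of the 10 genes. Dhx58, Tlr7 and Zbp1 were not matched. The windows were searched on both strands for the letters of an interferon-stimulated response element, GAAANNGAAA, the site type of interferon-induced promoters. Of the 7 windows, 3 held it, those of Ddx58, Ifih1 and Myd88, and 3.44% of 32851 windows of the same length did. The match began 33 bases after the start in Ifih1, 3 bases after it in Ddx58 and 40 bases before it in Myd88. The bases around 2 of these matches are shown because both RNA receptors rose together in bulk tissue. Capitals mark the match, which in Ddx58 reads on the opposite strand (Ifih1, minus strand, chr2:62646206-62646235, and Ddx58, minus strand, chr4:40239804-40239833).
Ifih1: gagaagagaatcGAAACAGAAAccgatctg
Ddx58: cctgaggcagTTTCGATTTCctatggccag

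The 2 adaptor genes differed in their calls in the bulk comparison given below. The 250 bases before their starts are therefore shown together, again with the response element in capitals (Myd88, minus strand, chr9:119340019-119340268, and Ticam1, minus strand, chr17:56276768-56277017). The last 23 of these bases in Myd88 and 19 in Ticam1 belong to an annotated exon in GENCODE M21, which also starts a Myd88 transcript farther upstream. The Myd88 window holds the element and the Ticam1 window does not. Nor do the windows of Tlr3 and Tlr9, which were called higher in bulk as Myd88 was. A link between the element and the calls was not tested.
Myd88: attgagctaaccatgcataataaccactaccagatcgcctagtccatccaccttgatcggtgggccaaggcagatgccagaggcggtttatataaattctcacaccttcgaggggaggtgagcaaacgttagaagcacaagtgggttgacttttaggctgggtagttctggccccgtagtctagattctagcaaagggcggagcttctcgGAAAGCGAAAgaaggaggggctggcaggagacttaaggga
Ticam1: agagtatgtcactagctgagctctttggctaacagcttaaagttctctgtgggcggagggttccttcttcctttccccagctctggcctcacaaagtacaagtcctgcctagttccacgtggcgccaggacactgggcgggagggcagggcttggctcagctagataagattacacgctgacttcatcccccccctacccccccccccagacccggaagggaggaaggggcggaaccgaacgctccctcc

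The other letters searched were those of a gamma-activated site, TTCNNNGAA, found in the Myd88 window 46 bases before the start and in 8.3% of all windows, and of a kappaB site, GGGANNTTCC, found in the Tlr3 window 211 bases before the start and in 1.47% of all windows. The Myd88 matches to the response element and the gamma-activated site overlap. Direct repeats of AGGTCA with 1 to 5 bases between, the kind of site that RXR dimers bind, were found in none of the 7 windows. Each spacing occurred in at most 0.0396% of all windows, so few could be met in 7. The single half-site AGGTCA was in the windows of Tlr2 and Tlr9 and in 16.3% of all windows. A match is a run of letters and not a measured binding site.

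Total counts ranged from 21567565 to 29167142 in the bulk libraries and from 12211655 to 27757463 in the sorted libraries. Levels are CPM, counts per 1000000 of the library size after TMM scaling, and a gene is called changed when its Benjamini-Hochberg adjusted p in edgeR's quasi-likelihood test over all genes is under 0.05. The vector RXRa sequence had 0 counts in all 4 bulk GFP libraries and 22.1, 27.8, 37.7 and 37.0 CPM in bulk RXRa libraries 1 to 4. Sorted EGFP libraries had at most 0.875 CPM of it and sorted RXRa libraries at least 43.3 CPM.

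Of the 10 genes, 7 were called higher and 0 lower: Zbp1, Tlr9, Dhx58, Ifih1, Ddx58, Myd88 and Tlr3. Over all 18579 genes tested, 3.7% were called and 3.01% were called higher. The median log2 fold change of the 10 genes was 1.00, and that of all genes was -0.02. All 10 estimates were above 0, and 9 had an unadjusted p under 0.05. In 7 genes every RXRa library lay above every GFP library, which was so for 6.64% of all genes. The share of all genes with an unadjusted p under 0.05 is not given here. Counts at that p are therefore not set against all genes, here or below.

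**Figure D1:**
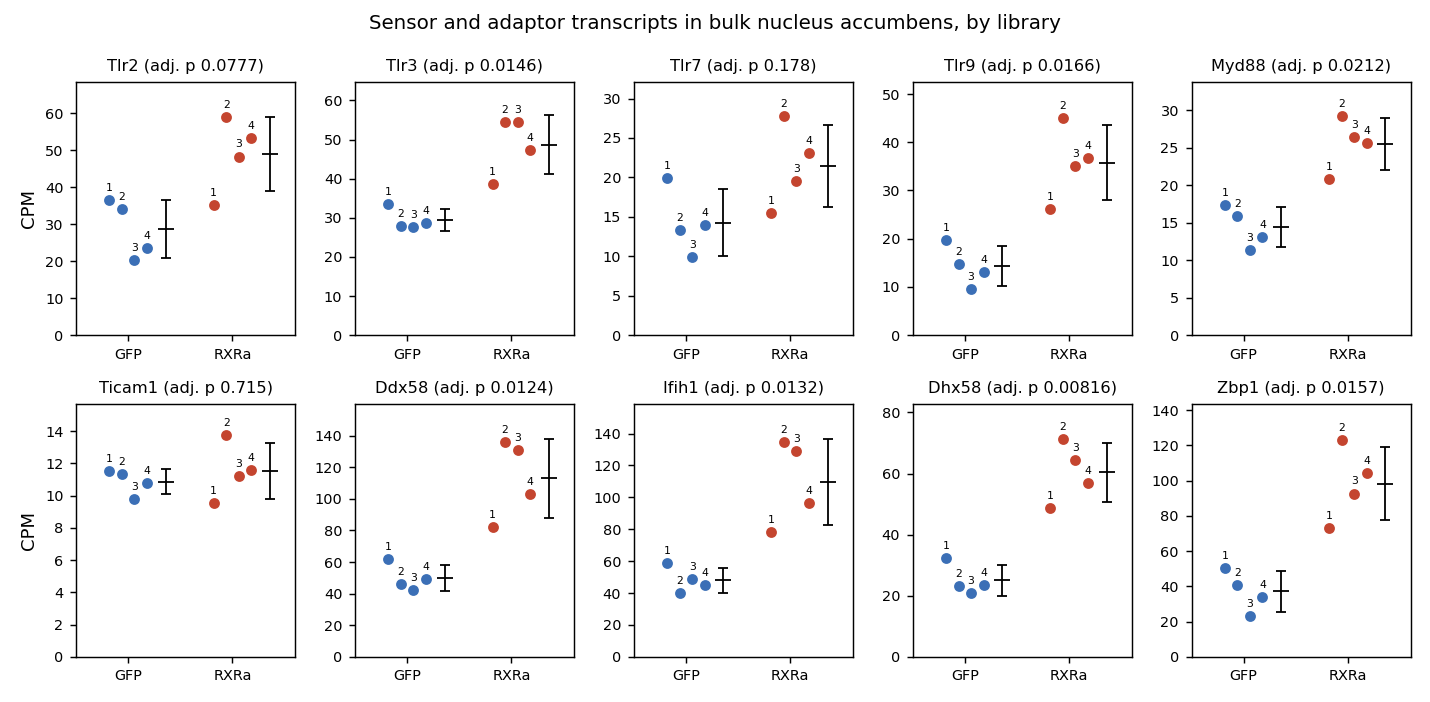
Levels of the 10 genes in bulk tissue, in CPM on axes that start at 0, for 4 GFP libraries (blue) and 4 RXRa libraries (red), numbered by replicate, with the mean and SD in black and the adjusted p in each title. The groups do not overlap for Tlr3, Tlr9, Myd88, Ddx58, Ifih1, Dhx58 and Zbp1, and they overlap for Tlr2, Tlr7 and Ticam1.

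The RIG-I-like receptors moved together. Ddx58 (ENSMUSG00000040296, GRCm38 chromosome 4, 40203773 to 40239828, protein-coding) encodes RIG-I, which binds short RNA with a 5′ triphosphate. It had 61.8, 45.8, 42.4 and 49.4 CPM in GFP libraries 1 to 4 and 82.0, 135.6, 130.7 and 103.3 CPM in RXRa libraries 1 to 4. The groups did not overlap, and the level was 2.26-fold higher, a log2 change of 1.18 (SE 0.17, adjusted p by edgeR = 0.0124).

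Ifih1 (ENSMUSG00000026896, chromosome 2, 62595798 to 62646255) encodes MDA5, which binds long double-stranded RNA. Its levels were 58.5, 40.0, 48.8 and 44.8 CPM with GFP and 78.4, 134.9, 129.2 and 96.4 CPM with RXRa. RXRa 2 and RXRa 3 were again the highest, as for Ddx58. The log2 fold change was 1.19 (SE 0.18, adjusted p by edgeR = 0.0132).

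Dhx58 (ENSMUSG00000017830, chromosome 11, 100694884 to 100704271) encodes LGP2, a regulator of both receptors that has no signalling domain of its own. It had 32.3, 23.3, 20.9 and 23.7 CPM with GFP and 48.6, 71.3, 64.5 and 57.1 CPM with RXRa. Its log2 fold change was 1.27 (SE 0.15), and its adjusted p of 0.00816 by edgeR was the lowest among the 10 genes. Dhx58os lies opposite to Dhx58 in the annotation. The use of strand in the counting is not given in the sources used here, so reads from the sense and antisense gene cannot be told apart.

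Zbp1 (ENSMUSG00000027514, chromosome 2, 173206612 to 173218923) encodes a sensor of Z-form nucleic acid that can start necroptosis. It had the largest estimate of the 10 genes. Its levels were 50.4, 40.9, 23.3 and 33.8 CPM with GFP and 73.3, 123.1, 92.7 and 104.4 CPM with RXRa. The level was 2.65-fold higher, a log2 change of 1.41 (SE 0.23, adjusted p by edgeR = 0.0157).

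Among the Toll-like receptors, Tlr9 and Tlr3 were called. Tlr9 (ENSMUSG00000045322, chromosome 9, 106222598 to 106226883) is the endosomal receptor for unmethylated CpG DNA. It had 19.7, 14.8, 9.65 and 13.04 CPM with GFP and 26.1, 45.1, 35 and 36.8 CPM with RXRa, a log2 change of 1.32 (SE 0.22, adjusted p by edgeR = 0.0166). Every RXRa library exceeded every GFP library.

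Tlr3 (ENSMUSG00000031639, chromosome 8, 45395665 to 45411080), the endosomal receptor for double-stranded RNA, showed little spread in the GFP group. It had 33.5, 27.95, 27.5 and 28.6 CPM with GFP and 38.6, 54.4, 54.5 and 47.4 CPM with RXRa. The log2 fold change was 0.73 (SE 0.12, adjusted p by edgeR = 0.0146). Gm45542 lies opposite to it and may share reads.

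Tlr2 and Tlr7 did not pass the test. Tlr2 (ENSMUSG00000027995, chromosome 3, 83836272 to 83841767) is the surface receptor for bacterial lipoproteins and the one of the 10 genes best known for ligands other than nucleic acids. It had 36.6, 34.0, 20.4 and 23.7 CPM with GFP and 35.3, 58.9, 48.3 and 53.3 CPM with RXRa. RXRa 1 lay below GFP 1, and the log2 fold change was 0.77 (95% interval 0.30 to 1.24, edgeR adjusted p = 0.0777).

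Tlr7 (ENSMUSG00000044583, chromosome X, 167304929 to 167330558), the endosomal receptor for single-stranded RNA, had 20.0, 13.3, 9.91 and 13.9 CPM with GFP and 15.4, 27.7, 19.6 and 23.1 CPM with RXRa. GFP 1 exceeded RXRa 1 and RXRa 3. The log2 fold change was 0.59 (95% interval 0.08 to 1.10, edgeR adjusted p = 0.178).

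The adaptors differed from each other in their calls. Myd88 (ENSMUSG00000032508, chromosome 9, 119335934 to 119341411) couples all Toll-like receptors named here except TLR3 to their kinases. It had 17.3, 15.8, 11.4 and 13.1 CPM with GFP and 20.9, 29.2, 26.4 and 25.7 CPM with RXRa. The groups did not overlap, and the log2 fold change was 0.83 (95% interval 0.50 to 1.16, edgeR adjusted p = 0.0212). Slc22a14 overlaps it on the same strand and Acaa1a on the other, and reads may be shared.

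Ticam1 (ENSMUSG00000047123, chromosome 17, 56269319 to 56276786) encodes TRIF, the adaptor of TLR3. Its levels were 11.5, 11.4, 9.80 and 10.8 CPM with GFP and 9.55, 13.8, 11.2 and 11.6 CPM with RXRa. The groups overlapped, with RXRa 1 the lowest and RXRa 2 the highest of the 8 libraries. The log2 fold change was 0.09 (95% interval -0.18 to 0.35, edgeR adjusted p = 0.715), and this interval lies below that of Myd88 without overlap. Without RXRa 2 the estimate was -0.01. The difference between both adaptors was not tested.

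The order of levels was read per kb of annotated exon, so that genes of different length could be compared. In the GFP group it ran from Zbp1 at 10.52 ± 3.24 CPM per kb (SD, n = 4) through Tlr2, Dhx58, Ddx58, Ifih1, Tlr3, Myd88, Tlr9 and Ticam1 to Tlr7 at 3.50 ± 1.03 CPM per kb (SD, n = 4). For all 9 neighbouring pairs in this order the intervals of mean ± 1 SD overlapped. In the RXRa group Zbp1 stood first at 27.9 ± 5.92 CPM per kb (SD, n = 4), apart from Dhx58 at 18.5 ± 2.98 (SD, n = 4). Ticam1 came last at 3.85 ± 0.582 CPM per kb (SD, n = 4), and Tlr7 above it at 5.26 ± 1.28 (SD, n = 4) stood apart from Tlr3 at 9.36 ± 1.45 (SD, n = 4). For the other 7 neighbouring pairs the intervals overlapped.

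The 10 genes also varied together between replicates. GFP 1 was the highest GFP library for all 10 genes, and GFP 3 was the lowest for 9. RXRa 1 was the lowest RXRa library for all 10 genes and RXRa 2 the highest for 9. The summed level of the 10 genes was 342, 267, 224 and 255 CPM in GFP libraries 1 to 4 and 428, 694, 612 and 559 CPM in RXRa libraries 1 to 4. Vector RXRa did not follow this order: it was lowest in RXRa 1, which had the lowest sum, but RXRa 2 with the highest sum had less of it than RXRa 3 and RXRa 4.

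The calls rested on single libraries more than the estimates did. Leaving out GFP 4 left 0 of the 10 genes called, with a lowest edgeR adjusted p of 0.0504, although all 10 estimates stayed above 0 and their median log2 fold change was 0.97. Leaving out GFP 2 left 4 called and lost Myd88, Tlr3 and Tlr9. Leaving out RXRa 4 left 4 called and lost Myd88, Tlr9 and Zbp1. Leaving out RXRa 1 gave 8, with Tlr2 added at an adjusted p of 0.0349. Ddx58, Ifih1 and Dhx58 were called in all of these left-out fits except the one without GFP 4.

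Genes with the most similar course over the 8 bulk libraries were sought by Pearson's r of log2(CPM + 1) with the mean standardized level of the 10 genes, as a description. The top 5 were Zc3hav1 (r = 0.997), Lgals9 (r = 0.996), Ifit1bl2 (r = 0.996), Pnp (r = 0.995) and Parp14 (r = 0.995). Zc3hav1 encodes the antiviral zinc finger protein ZAP and Parp14 an ADP-ribosyltransferase. All 8 libraries enter each r, so the difference between groups is part of it. Zc3hav1 had 31.4 to 48.1 CPM with GFP and 51.5 to 97.8 CPM with RXRa.

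Markers of several immune cell types were called higher in the bulk RXRa libraries as well. Of 8 natural killer cell markers, 7 were called higher, with a summed level of 18.9 to 24.6 CPM with GFP and 41.2 to 103 CPM with RXRa. Of 9 T cell markers, 6 were called higher, at 54.1 to 69.2 and 65.1 to 118 CPM. Of 8 border macrophage and monocyte markers tested, 2 were called higher, at 48.5 to 96.3 and 144 to 259 CPM. Of 6 dendritic cell markers tested, 2 were called higher, at 13.6 to 25.1 and 28.6 to 60.5 CPM. The microglia markers, which include P2ry12, Tmem119 and Cx3cr1, had 0 of 12 called by edgeR, 3 of 12 at an unadjusted p under 0.05, and summed levels of 857 to 1311 CPM with GFP and 928 to 1303 CPM with RXRa. Of 7 endothelial markers 2 were called higher, at 248 to 317 and 325 to 358 CPM. Astrocyte markers had 1 of 9 called higher and 1 lower, at 4430 to 4804 and 4043 to 4679 CPM, and oligodendrocyte markers had 0 of 7 called, at 4866 to 5428 and 2986 to 5168 CPM. Of 8 markers of neurons in general 1 was called lower, at 5108 to 6105 and 4644 to 5375 CPM. All 5 D2 neuron markers tested had estimates below 0 and an unadjusted p under 0.05, with 1 called lower, a median log2 change of -0.22 and summed levels of 1641 to 1944 and 1501 to 1673 CPM. D1 neuron markers had summed levels of 851.5 to 1048 CPM with GFP and 810.2 to 938.7 CPM with RXRa. Oligodendrocyte precursor markers had 300.4 to 361.8 and 256.4 to 339.9 CPM, and mural cell markers 221.1 to 246.6 and 236.5 to 280.9 CPM. B and plasma cell markers had 1.81 to 2.83 and 1.79 to 6.22 CPM. Calls within these lists are not given here. Of 7 neutrophil markers 2 were tested and 0 were called by edgeR. Both had an unadjusted p under 0.05, in opposite directions (-1.55 and 0.43 on the log2 scale), and Ly6g was at 0 in all 8 libraries. The part of these cells in the result was not tested. In bulk tissue more cells of a type and more RNA per cell cannot be told apart. The counts at an unadjusted p under 0.05 have no share of all genes beside them and mark no excess.

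The remaining genes of these pathways were read from 10 lists with 112 genes, of which 110 were tested in bulk. In all, 27 were called higher and 0 lower, against 3.01% of all genes called higher. The lists were written with earlier results of these data known, and they are described by counts. The RNA and DNA sensing lists held the most calls, 9 and 7, while co-receptors, other Toll-like receptors and other adaptors held 0.

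**Figure D2:**
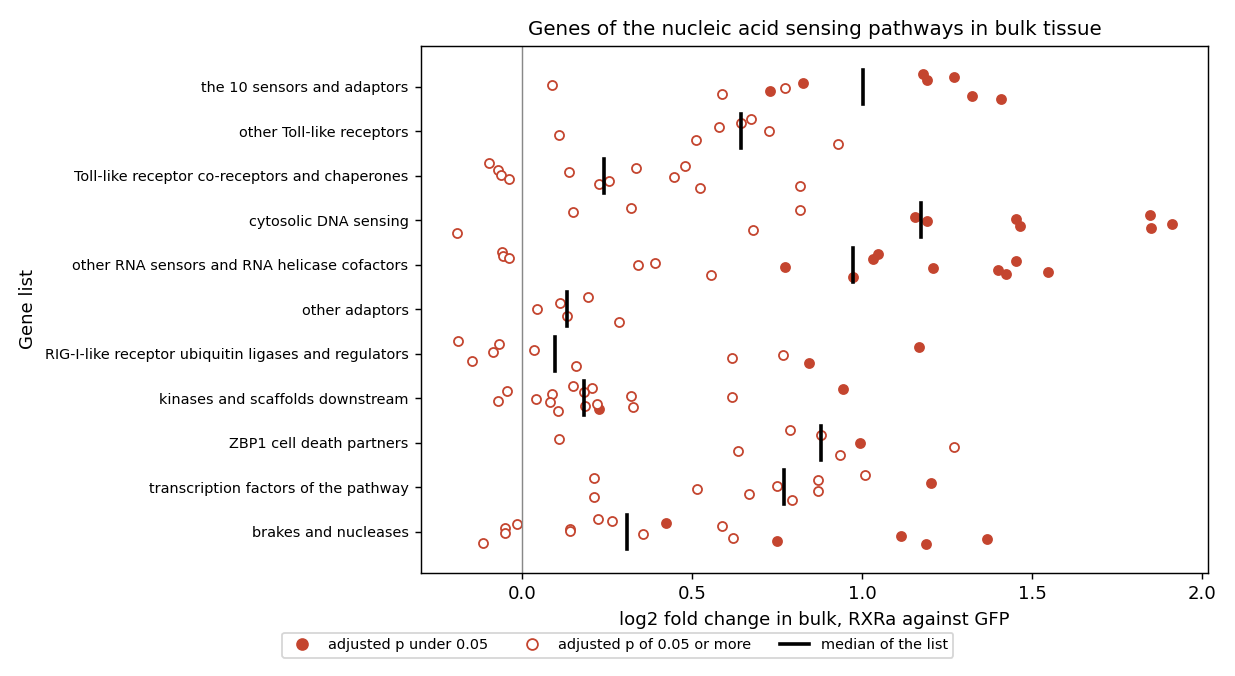
Log2 fold changes in bulk tissue, RXRa against GFP, for the 10 genes (top row) and for the genes of 10 lists, 1 point a gene, with filled points at an adjusted p under 0.05 and a black bar at the median. The medians lie at 1.17 for cytosolic DNA sensing and 0.97 for other RNA sensors, and at 0.13 for other adaptors and 0.18 for kinases and scaffolds.

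Cytosolic DNA sensing had 7 of 12 genes called higher, all members of the Ifi200 family, which lie close to one another and resemble each other in sequence, so that reads may be shared. Ifi208 had 5.07 to 7.80 CPM with GFP and 15.2 to 33.5 CPM with RXRa, a log2 change of 1.91 (SE 0.24, adjusted p by edgeR = 0.00843). Mndal changed by 1.85 and Ifi203 by 1.85 on the log2 scale. Cgas, the enzyme that makes cyclic GMP-AMP on DNA, had 3.25 to 5.34 CPM with GFP and 5.46 to 9.999 CPM with RXRa and did not pass (log2 fold change 0.82, edgeR adjusted p = 0.0766). Its receptor Sting1 had a log2 change of 0.68 (edgeR adjusted p = 0.0932).

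Other RNA sensors and cofactors had 9 of 15 called higher. Oas3, which makes 2-5A when it binds double-stranded RNA, had 17.8 to 41.5 CPM with GFP and 52.4 to 104.8 CPM with RXRa, a log2 change of 1.55 (SE 0.27, adjusted p by edgeR = 0.0208). Ifit1, which binds RNA with an unmethylated cap, had 96.4 to 147.5 CPM with GFP and 275.9 to 389.4 CPM with RXRa. Its log2 fold change was 1.45 and that of Oasl1 was 1.42.

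Among the regulators of RIG-I-like receptors, 2 of 10 were called higher. Nlrc5 had a log2 change of 1.17 (edgeR adjusted p = 0.0399). Trim25, a ubiquitin ligase that acts on RIG-I, had 37.9 to 70.5 CPM with GFP and 72.7 to 120.2 CPM with RXRa, a log2 change of 0.84 (edgeR adjusted p = 0.0467). Mavs, the adaptor on which RIG-I and MDA5 converge, had 10.02 to 12.2 CPM with GFP and 10.96 to 14.1 CPM with RXRa, with a log2 change of 0.19 (95% interval -0.05 to 0.44, edgeR adjusted p = 0.34). It belongs to the 5 other adaptors, of which 0 were called by edgeR and 0 had an unadjusted p under 0.05.

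Of the other Toll-like receptors, 7 of 8 were tested, 0 were called by edgeR and 5 had an unadjusted p under 0.05, with a median log2 fold change of 0.64. Tlr4, the lipopolysaccharide receptor, had a log2 change of 0.73 (edgeR adjusted p = 0.0562), and Tlr8 had 0.93 (edgeR adjusted p = 0.224) at levels of 0.407 to 2.65 CPM. Of 12 co-receptors and chaperones 0 were called by edgeR and 3 had an unadjusted p under 0.05. The share of all genes at that p is not given here, so neither this count nor the 5 above marks an excess. Unc93b1, which carries the endosomal receptors to their compartment, had a log2 change of 0.52 (edgeR adjusted p = 0.141), and Ly96 had 0.82 (edgeR adjusted p = 0.11).

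Downstream, 2 of 16 kinases and scaffolds were called higher. Ikbke had a log2 change of 0.94 and Traf3 had 0.23, with little spread (50.2 to 54.2 CPM with GFP and 58.0 to 64.0 CPM with RXRa). Of 10 transcription factors Irf7 was called, with 116.5 to 206.3 CPM with GFP, 276.6 to 450.9 CPM with RXRa and a log2 change of 1.20 (SE 0.19, adjusted p by edgeR = 0.0142), and all 10 had an unadjusted p under 0.05. Of 7 cell death partners of ZBP1, Gsdmd was called (log2 fold change 0.99), while Mlkl (1.27, edgeR adjusted p = 0.0561) and Ripk3 (0.94, edgeR adjusted p = 0.084) did not pass. Of 16 brakes and nucleases tested, 5 were called higher, with Socs1 at 1.37, Usp18 at 1.19 and Samhd1 at 1.11 on the log2 scale.

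As for the 10 genes, single libraries moved the count of 27. It was 0 without GFP 4, 16 without GFP 2, 12 without RXRa 4, 15 without RXRa 2, 15 without RXRa 3 and 41 without RXRa 1.

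To follow the 10 genes in neurons, the sorted nuclei were compared next. In D1 nuclei edgeR called 0 of the 10 genes, as it called 0% of all 43902 genes, and 0 of the 10 had an unadjusted p under 0.05. DESeq2 also called 0 of the 10. The estimates ran from -0.18 for Zbp1 to 0.01 for Ddx58 on the log2 scale, with a median of -0.09. The 95% intervals reached no higher than 0.18 for Myd88, 0.17 for Tlr9 and 0.16 for Ticam1 and Tlr2, and those of the other 6 genes ended lower. The bulk and sorted effects came from different experiments, and their difference was not tested.

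**Figure D3:**
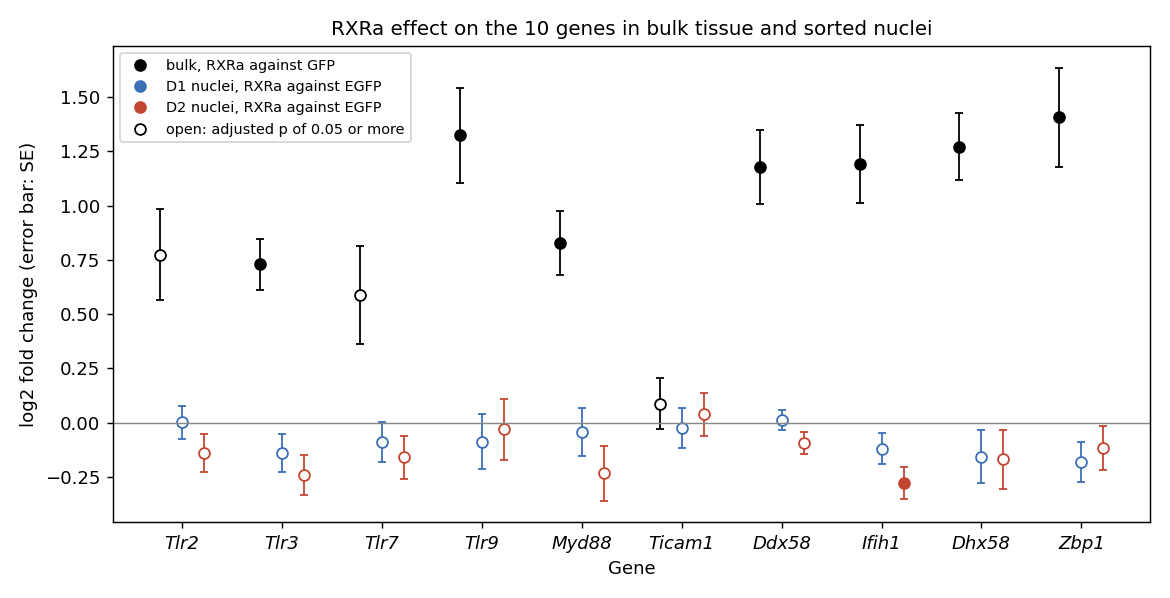
Log2 fold change of each gene with its SE, in bulk tissue (black), D1 nuclei (blue) and D2 nuclei (red), with filled points at an adjusted p under 0.05. Bulk estimates lie between 0.09 and 1.41, and those in sorted nuclei between -0.28 and 0.04.

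In D2 nuclei 1 of the 10 genes was called, Ifih1, and it was lower. Over all genes 22.1% were called and 7.14% were called lower, and 1 gene of 10 is too few to set apart from these shares. Ifih1 had 31.7, 33.0, 34.7 and 33.2 CPM in the D2 female EGFP libraries and 29.2, 32.5, 23.3 and 24.5 CPM in the D2 female RXRa libraries. In D2 males it had 34.7, 35.5, 31.2, 33.4 and 26.2 CPM with EGFP and 28.8, 26.4, 27.6 and 23.3 CPM with RXRa. The groups overlapped in both sexes. The log2 fold change was -0.28 (SE 0.08, adjusted p by edgeR = 0.0143), and it did not pass without D2 female RXRa 4 (adjusted p = 0.0627) or without D2 male RXRa 5 (adjusted p = 0.0507).

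These 2 libraries had the lowest share of counts in background, as estimated from genes without a count in bulk, at 3.81% and 4.17%, against 5.43% to 6.23% in the D2 EGFP libraries. Each also had the most vector RXRa of its group, at 709 and 617.6 CPM. With the background share as a covariate the Ifih1 estimate was -0.13 (edgeR adjusted p = 1.0), and 0 of the 10 genes and 0 of all genes were called. All 8 markers of neurons in general were called higher in D2, and their median log2 change was 0.68. Vector RXRa, background share and neuron markers moved together in these libraries and cannot be told apart as sources of the lower Ifih1 level.

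The other 9 genes were not called in D2. Tlr3 was nearest, with 9.79 to 14.0 CPM over 9 EGFP libraries and 6.41 to 11.3 CPM over 8 RXRa libraries (log2 fold change -0.24, edgeR adjusted p = 0.0595). Myd88 had -0.23, and the rest lay between -0.17 for Dhx58 and 0.04 for Ticam1. In total 9 of the 10 estimates were below 0, with a median of -0.15, against -0.04 for all genes. Of the 112 genes on the pathway lists 16 were called higher and 20 lower. Over all genes 22.1% were called and 7.14% were called lower, and the lists were not tested against these shares. The largest changes among the called list genes were Hsp90b1 at 0.75 and Cyld at 0.66, and Ifit1 at -0.81 and Ifi204 at -0.31 on the log2 scale. The count of 36 was 0 without D2 female RXRa 4, 5 without D2 male RXRa 5, 18 without D2 female EGFP 5 and 21 without D2 male EGFP 1.

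Within each sex edgeR called 0 of the 10 genes. At an unadjusted p under 0.05 there were 2 in D1 females, 0 in D1 males, 1 in D2 females and 2 in D2 males, and DESeq2 called 0 in each. The share called among all genes was 0% in each of these edgeR fits. The share of all genes at an unadjusted p under 0.05 is not given here, so the counts at that p do not show an excess. Ifih1 had the lowest p of the 10 genes in D1 females, with 30.7 ± 1.11 CPM (SD, n = 5) with EGFP and 25.1 ± 2.72 CPM (SD, n = 4) with RXRa, every RXRa library below every EGFP library (log2 fold change -0.29, edgeR adjusted p = 0.787). The share of all genes with such a separation was not counted. D1 female RXRa 1 and 5 had the lowest Ifih1, at 21.7 and 24.1 CPM. Their background shares were 4.91% and 4.86%, against 5.46% to 6.47% in the D1 female EGFP libraries. No estimate with the background share as a covariate is given here for D1 females, so no statement on the part of background in this difference is made. In D1 males Ifih1 had 29.2 ± 3.82 CPM (SD, n = 5) and 30.3 ± 3.78 CPM (SD, n = 4). The tests of a sex difference in the RXRa effect called 0 of the 10 genes in D1 and 0 in D2 (0% of all genes in each), with 1 and 0 genes at an unadjusted p under 0.05. The test of the D2 effect minus the D1 effect called 0 as well (0% of all genes), with 0 at an unadjusted p under 0.05, and DESeq2 called 0 in all 3. The largest D2 minus D1 difference was -0.19 for Myd88 (95% interval -0.53 to 0.15).

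Between the populations themselves, under EGFP, edgeR called 0 of the 10 genes and 0.121% of all genes, and DESeq2 called 0 of the 10. Zbp1 was the one with an unadjusted p under 0.05. It had 7.75 to 9.72 CPM over 10 D1 libraries and 5.80 to 8.18 CPM over 9 D2 libraries, a log2 change of -0.25 for D2 against D1 (SE 0.09, adjusted p by edgeR = 0.325). In the sorted libraries the counts behind these values were small for some genes, from 13 to 55 reads per library for Myd88 and from 23 to 77 for Tlr9, and large for Ddx58, from 309 to 889.

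The sorted levels were set beside a background read from the same libraries. For this, protein-coding genes that span 5 kb or more and had 0 counts in all 8 bulk libraries were taken as silent genes. The 1576 autosomal ones gave a median of 0.379 to 0.565 CPM per kb of gene body per sorted library. The 10 genes had mean ratios to this density between 0.592 for Myd88 and 1.71 for Ticam1 over 35 libraries, with Tlr7 set against 118 X-linked silent genes. Dhx58 was at 0.988 ± 0.207, Zbp1 at 1.25 ± 0.217, Ifih1 at 1.18 ± 0.0709 and Ddx58 at 1.59 ± 0.16 (SD, n = 35). The central 95% of the autosomal silent genes ranged from 0.13 to 1.78, and the mean ratios of all autosomal genes among the 10 lay inside this range. Tlr7, at 1.56, lay inside the range of the X-linked silent genes, 0.0387 to 2.7. Tlr9 spans 4286 bases, less than the 5 kb asked of the silent genes. Ticam1 exceeded 97.0% and Ddx58 95.3% of the silent genes, and Myd88 exceeded 11.9%.

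**Figure D4:**
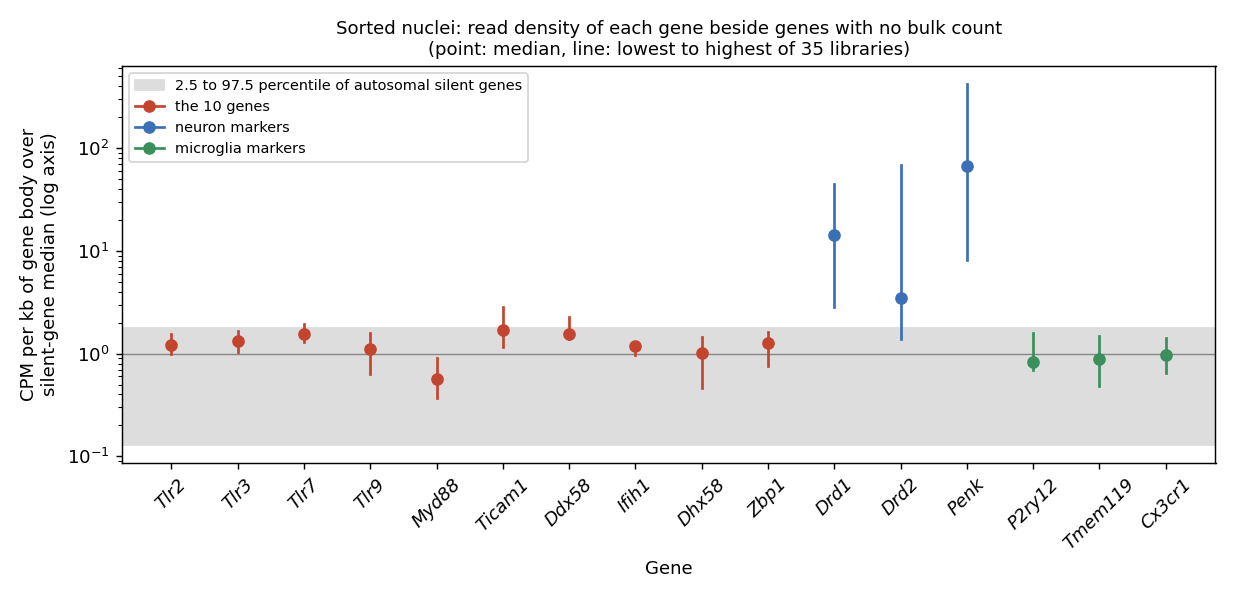
CPM per kb of gene body divided by the silent-gene median of the same sorted library, on a log axis, for the 10 genes (red), 3 neuron markers (blue) and 3 microglia markers (green), with the median as a point and the lowest to highest of 35 libraries as a line. Tlr7 is divided by the X-linked silent median, while the grey band comes from autosomal silent genes only. The medians of the 10 genes lie inside the grey band of silent genes, 0.13 to 1.78, while those of Drd1, Drd2 and Penk lie above it.

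Several neuron markers stood above that band in the same libraries, and others did not. The median ratio was 14.2 for Drd1, 3.5 for Drd2, 66.8 for Penk and 6.44 for Snap25. It lay inside the band for Rbfox3 at 1.61, Isl1 at 1.59, Ebf1 at 1.29, Sp9 at 1.28 and Eya1 at 1.21, so a ratio inside the band does not show that a gene is not expressed. The microglia markers plotted lay inside it as well, with 0.82 for P2ry12, 0.891 for Tmem119 and 0.968 for Cx3cr1. By this measure the sorted levels of the 10 genes were not distinguishable from background, so a change of their expression in D1 or D2 neurons may not be detectable in these libraries.

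Tlr7 was the one of the 10 genes that differed between females and males. Under EGFP it had 15.8 ± 0.938 CPM (SD, n = 5) in D1 female and 8.09 ± 0.823 CPM (SD, n = 5) in D1 male nuclei, and 17.5 ± 1.28 CPM (SD, n = 4) in D2 female and 8.54 ± 1.51 CPM (SD, n = 5) in D2 male nuclei. Over all sorted libraries the 17 female ones had 12.2 to 20.7 CPM and the 18 male ones 6.55 to 10.3 CPM, with no overlap. The log2 difference, female minus male, was 1.00 (SE 0.09, adjusted p by edgeR = 8.01e-11), against 4.43% of all genes called in this comparison. The other 9 genes had differences between -0.11 and 0.08 and were not called.

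**Figure D5:**
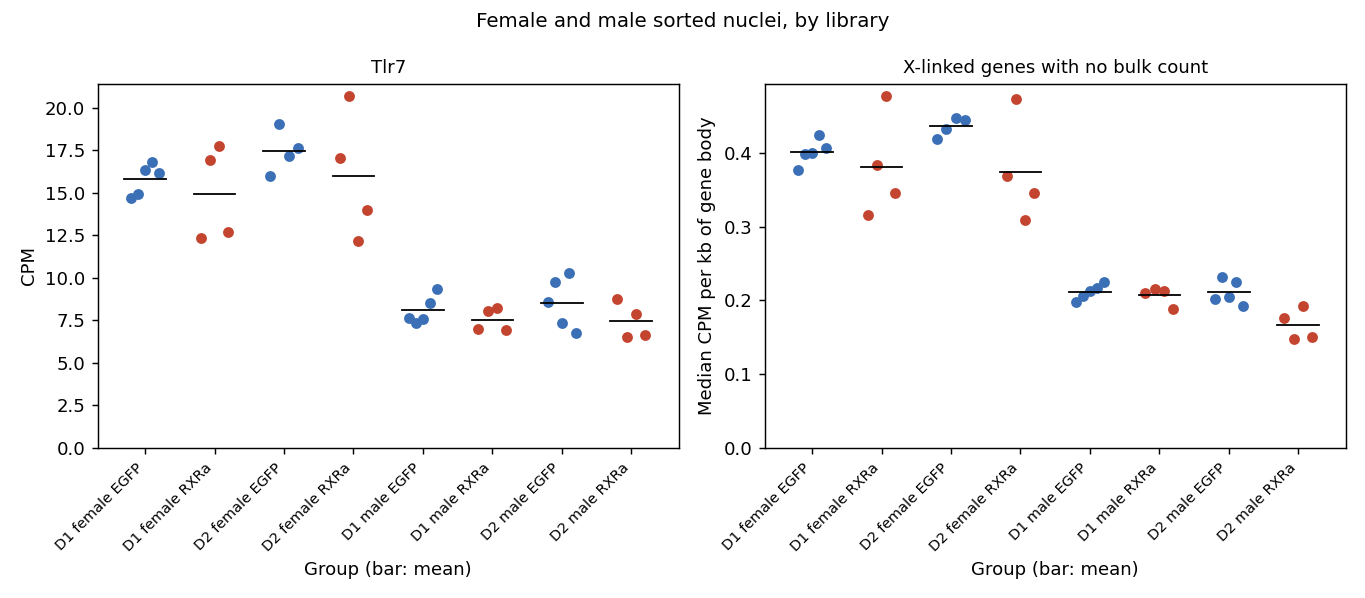
Tlr7 in CPM (left) and the median over 118 X-linked silent genes of CPM per kb of gene body (right), 1 point for each sorted library, EGFP in blue and RXRa in red, with a bar at the group mean and axes that start at 0. Both panels are about 2 times higher in the 4 female groups than in the 4 male groups, with no overlap between the sexes.

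Tlr7 lies on the X chromosome, near Tlr8, and is known as a gene that can escape X inactivation in immune cells. The same size of difference was measured for other X-linked genes. The 790 X-linked genes tested that had no count in bulk had a median female minus male difference of 1.00 on the log2 scale, and 675 of them were called higher in females. X-linked genes above 100 CPM in bulk had a median of 0.37 with 30 of 83 called, and 41593 autosomal genes had a median of -0.02. Tlr13 had 1.01 and Tlr8 0.90, and both are X-linked. The Tlr7 difference was of the same size as the median of X-linked genes with no bulk count. The bulk libraries all came from males and hold no comparison of the sexes.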

How the data were processed

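RNA was sequenced from bulk tissue and sorted nuclei. The deposited values are whole-number read counts per gene without normalization, made by the authors with Trimmomatic, HISAT2, Picard and featureCounts (Subread) on GRCm38, per the submitters' processing notes. Versions, strand use and treatment of intron reads are not given in the sources used here. Symbols, positions and lengths come from GENCODE M21, which holds 55394 of the 55487 gene identifiers.

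Counts were fitted with edgeR 4.0.16 in R 4.3.3 (quasi-likelihood test, TMM scaling, filterByExpr by group, vector entries left out), bulk with 2 groups and the 35 grouped sorted libraries with 8, in 12 contrasts that weight sexes or populations equally where they are joined. P-values were adjusted over all genes tested. DESeq2 1.42.0, sva 3.50.0, other scalings and filters, a replicate block and leaving out each library were the alternatives. All 72 pairs of replicates differed beyond sampling noise (chi-square over degrees of freedom 1.785 or more), so each library counted once. On simulated data with 200 genes changed by 1 on the log2 scale, 73% were called in bulk among 18601 genes, 90% in D1 and 87% in D2, and 4.6%, 5.8% and 8.4% of the calls were false. The changed genes were drawn at random, and the simulated libraries had no shared factor such as the background share. These rates therefore do not carry over to genes near background or to smaller changes.

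The named genes are the 10 genes, and from each pathway list up to 3 called genes with the largest rise, or the gene with the smallest p where none was called, with Tlr4, Tlr8, Cgas, Sting1, Mavs, Unc93b1, Trim25, Irf7, Ripk3 and Mlkl always given, plus up to 2 list genes with the largest rise and fall in each sorted contrast with calls and the 5 genes most like the 10 in bulk. Genes and lists were chosen with earlier results of these data known.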

Additional observations from a re-analysis of the deposited data

Results flagged for a closer look

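Over 100 groups of 4 or 5 libraries examined for the 10 genes, 1 library stood apart from its group, and chance gives about 1 in 20. It was D1 female EGFP 3 for Tlr2, at 4.432 CPM, with the others between 3.30 and 3.53 CPM.

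The Tlr2 estimates had opposite signs in the male groups, each little larger than its SE or smaller. Every D1 male RXRa library lay above the EGFP mean (log2 fold change 0.088, SE 0.11). Every D2 male RXRa library lay below it (log2 fold change -0.141, SE 0.12). The share of all genes with such a pattern was not counted. The difference between the male estimates was not tested, and neither estimate passed the edgeR test.

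The library whose title and vector label disagree held 177.7 CPM of vector RXRa. The sorted RXRa libraries had 43.3 to 709 CPM of it and the sorted EGFP libraries at most 0.875 CPM. By this sequence the library was like the RXRa libraries, as its title says. It had 6.829 CPM of Ticam1 and 7.857 CPM of Zbp1, both above every D2 female EGFP library and every D2 female RXRa library. The Ticam1 and Zbp1 levels therefore do not tell its labels apart, and the library entered no comparison.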

How the results depend on the processing

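Of 105 values of counts recomputed under other scalings, filters, tools, covariates or the block, 96 stayed within 1.5 times the main count. Most of these counts were 0 in the main fit, where such a bound says little. The 9 values that moved all belonged to counts above 0, and they are given here. The bulk count of 7 genes was 0 with the replicate block, in which the number pairs GFP and RXRa libraries. Libraries with the same number had correlations of -0.564, 0.169, 0.53 and 0.017 in bulk. So few and mixed values cannot settle whether the numbers pair the samples. The loss of all bulk calls with the block therefore stands as a limit on them. Each sorted comparison by sex also held at least 1 negative correlation. The list count of 27 in bulk was 51 with DESeq2, 65 with 1 surrogate variable and 0 with the replicate block. In D2 the count of 1 gene was 4 with library totals only, 2 when genes under a mean CPM of 1 were dropped and 0 after adding the background share as a covariate, and the list count of 36 was 22 with the replicate block and 0 with the covariate. With library totals only, D2 calls over all genes split into 2063 higher and 9325 lower instead of 6548 and 3135, and the median of all genes moved from -0.043 to -0.199. The cause of these moves was not tested.

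Leaving out 1 library at a time gave 0 to 8 genes in bulk, 0 to 2 in D2, 0 to 1 in D2 females, 0 to 1 in D2 males, 0 to 41 list genes in bulk and 0 to 53 in D2. Of the reversed estimates none was called. With library totals only, D1 estimates were -0.071 for Tlr2 and -0.062 for Ddx58, and the D2 estimate of Ticam1 was -0.125. With the background share covariate, D1 estimates were 0.046 for Tlr7 and 0.081 for Myd88, and D2 estimates were 0.085 for Tlr7, 0.083 for Tlr9 and 0.004 for Myd88. With the replicate block the D2 estimate of Tlr9 was 0.021. Leaving out 1 library, estimates ranged from -0.016 to 0.042 for Ddx58, -0.058 to 0.043 for Tlr2 and -0.082 to 0.022 for Ticam1 in D1, from -0.014 to 0.111 for Ifih1 in D1 males, from -0.007 to 0.089 for Ticam1 and -0.12 to 0.085 for Tlr9 in D2, and from -0.013 to 0.175 for Ticam1 in bulk. The Tlr7 difference between the sexes was called in every alternative run, at 0.928 to 1.041. Low counts limit Myd88 and Tlr9 in sorted nuclei.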
